A study of Mus musculus with 16 samples.

Results

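Mouse jejunal organoids in which Hnf4a had been deleted were compared between day 2 and day 4 of culture. Organoids are closed epithelial cultures grown from intestinal crypts. The comparison used 8 of the 16 libraries of the series, chosen by their treatment and day labels: 4 libraries of day 2 and 4 libraries of day 4 from organoids given 4-hydroxytamoxifen (4OHT). All organoids, controls included, had a C57BL/6 background and carried Villin-CreERT2 with Hnf4a flox/flox. Villin-CreERT2 is a Cre recombinase that 4OHT activates, driven by the promoter of villin, which is active in intestinal epithelium. The 4OHT organoids had received 0.5 µM of the drug for 24 h and were then split, and the 8 control libraries (4 per day) came from organoids given the vehicle DMSO. The labels give the harvest as day 4 counted from the last passage and do not describe day 2 separately. Deletion and exposure to 4OHT cannot be told apart in these groups, nor can the day and anything else that differed between the harvests of day 2 and day 4. The number of mice or cultures behind a group was not given in the sources used here, so the p-values speak only of how these libraries spread, and that spread may be technical.

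Counts of 19964 genes, present in the tables of both days, were joined. Libraries held between 63791712 and 93322956 counts. Hnf4a itself (chr2:163506808-163572910, GRCm38) stood at 519, 532, 509 and 482 CPM (scaled counts-per-million) in the 4OHT libraries of day 2 and at 470.1, 490.4, 463 and 455 CPM in those of day 4. In the DMSO libraries it stood at 1013, 1044, 1047 and 979 CPM at day 2 and 961, 984, 967 and 956 CPM at day 4. All 8 4OHT libraries lay below all 8 DMSO libraries, but counts per gene include exons outside the floxed part, so the share of deleted alleles cannot be read from them. Within the 4OHT organoids the change of Hnf4a between the days was log2 -0.11 ± 0.05 and was not called (edgeR adjusted p = 0.0917), whereas it was called as a fall of 0.12 on the log2 scale with all 16 libraries in the fit (edgeR adjusted p = 0.0325) and by DESeq2 (adjusted p = 0.0347). Its paralogue Hnf4g, the other Hnf4 gene of the intestine, measured log2 0.05 ± 0.07. The 18 genes of the small intestinal epithelial list summed to 22520 to 24940 CPM at day 2 and 18030 to 18990 CPM at day 4. Markers of other cells were close to absent. Of 20 stromal genes 12 were in neither table, Col3a1, Dcn and Lum among them, and the rest summed to 8.43 to 9.38 CPM at day 2 and 9.65 to 12.4 CPM at day 4. Of 22 immune, endothelial and neural genes 8 were in neither table, and the sums were 7.72 to 8.37 and 8.70 to 12.2 CPM. The 4OHT day 4 replicate 4 library stood apart: 1.55% of its counts came from mitochondrially encoded genes, against 2.56% to 3.06% in the other 3 libraries of its group. The DMSO day 4 library of the same number was alike, at 1.631% against 2.345% to 3.083% in the rest of its group. Where leaving out 4OHT day 4 replicate 4 moved a count of rises or falls in a list described below by over 1.5 times, both counts are given.

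In the intestine, stem cells at the crypt base divide under Wnt signals, part of which come from neighbouring Paneth cells that make Wnt3, and their daughters become absorptive enterocytes or secretory goblet, Paneth, enteroendocrine and tuft cells. HNF4A is a nuclear receptor that binds enhancers of many enterocyte genes, together with HNF4G. After a passage, organoid fragments first regrow as cysts whose cells use genes of fetal and wounded epithelium, and later form buds with crypt-like ends.

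The promoters of 8 genes are shown because they come from a list whose members mostly rose and a list whose members mostly fell. Each line gives the 150 bases directly before the annotated start, 5′ to 3′ on the gene's strand (RefSeq, GRCm38.p6). Of 15 motifs searched in 11 gene lists, the 2 shown were picked after the counts were known, and the genes Ankrd37, Slc16a3, Pgk1, Il1rn and S100a11 were picked for this display after their values were seen. The first 4 belong to the glycolysis and hypoxia list, whose members mostly rose. Capitals mark ACGTG on either strand, a core bound by hypoxia-inducible factors. They lie at chr7:138909507-138909656 (minus strand, Bnip3), chr8:45999851-46000000 (minus, Ankrd37), chr11:120948917-120949066 (plus, Slc16a3) and chrX:106186950-106187099 (plus, Pgk1). In Bnip3 the marked CACGTG holds ACGTG on both strands, overlapping.
Bnip3: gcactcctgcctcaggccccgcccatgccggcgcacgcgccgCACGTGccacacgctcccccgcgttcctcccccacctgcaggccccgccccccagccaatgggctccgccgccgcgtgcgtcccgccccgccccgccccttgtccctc
Ankrd37: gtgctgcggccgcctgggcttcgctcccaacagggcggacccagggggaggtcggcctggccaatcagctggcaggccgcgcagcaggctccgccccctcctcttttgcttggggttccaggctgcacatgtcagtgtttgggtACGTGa
Slc16a3: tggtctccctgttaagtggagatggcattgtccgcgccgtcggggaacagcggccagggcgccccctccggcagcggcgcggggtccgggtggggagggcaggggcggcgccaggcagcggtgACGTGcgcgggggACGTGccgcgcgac
Pgk1: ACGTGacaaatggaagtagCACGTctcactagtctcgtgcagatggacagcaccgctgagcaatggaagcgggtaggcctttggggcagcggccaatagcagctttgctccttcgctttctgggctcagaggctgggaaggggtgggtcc

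The other 4 belong to the fetal and regenerative list, none of whose members rose, and capitals mark TGACTCA on either strand, the site of AP-1 factors of the Fos and Jun families. They lie at chr3:92485882-92486031 (minus strand, Sprr1a), chr8:62123194-62123343 (minus, Anxa10), chr2:24336710-24336859 (plus, Il1rn) and chr3:93520346-93520495 (plus, S100a11).
Sprr1a: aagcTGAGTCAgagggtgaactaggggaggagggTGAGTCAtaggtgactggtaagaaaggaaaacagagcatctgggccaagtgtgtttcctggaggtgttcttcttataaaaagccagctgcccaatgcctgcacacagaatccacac
Anxa10: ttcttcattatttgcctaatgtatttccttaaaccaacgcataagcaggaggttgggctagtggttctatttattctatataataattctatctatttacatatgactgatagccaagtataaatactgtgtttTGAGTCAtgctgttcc
Il1rn: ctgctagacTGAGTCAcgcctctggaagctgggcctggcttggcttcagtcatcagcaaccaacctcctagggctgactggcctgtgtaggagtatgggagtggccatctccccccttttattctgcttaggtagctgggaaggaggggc
S100a11: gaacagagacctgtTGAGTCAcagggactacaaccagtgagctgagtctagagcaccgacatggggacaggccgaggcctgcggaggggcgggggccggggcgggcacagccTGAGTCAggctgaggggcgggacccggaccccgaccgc
In RefSeq windows from 250 bases before to 50 after a start, ACGTG was present in 58.7% of 46 windows of 32 glycolysis and hypoxia genes and in 24.6% of 13628 windows of 10664 tested genes. GCGTG, also searched, was present in 58.7% of the glycolysis and hypoxia windows and in 48.7% of all windows. TGACTCA was present in 19.4% of 31 windows of 25 fetal and regenerative genes and in 4.12% of all windows. TATAAA, also searched, was present in 32.3% of the same fetal and regenerative windows and in 7.69% of all windows. Its share was 30% in gastric and squamous genes and 32% in brush border hydrolases. In the other lists TGACTCA ran from 0% (ribosome biogenesis) to 25% (gastric and squamous), with 12% in brush border hydrolases, which mostly rose, and 14.3% in glutathione and Nrf2 genes. The gastric and squamous list shares members with the fetal and regenerative list. These matches describe letters only.

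Between day 2 and day 4, expression in the 4OHT organoids changed in both directions to a similar extent. Of 15962 genes tested, 4127 (25.9%) rose and 3753 (23.5%) fell at a Benjamini-Hochberg adjusted p below 0.05 by edgeR's quasi-likelihood test. Of these, 914 rose and 425 fell at least 2-fold, and 127 and 76 at least 4-fold. Against these shares, 22 of 25 stem cell genes rose and 32 of 38 fetal and regenerative genes fell. The counts in every list below are to be read against the same shares, which some lists lay near or below. The median change over all tested genes was 0.01 on the log2 scale. For 6876 of the 7880 called genes, the 4 libraries of one day did not overlap the 4 of the other. A call on these same libraries makes that likely, so the count adds no separate support. The share over all tested genes was not counted. The days separated along the first principal component of the 8 libraries, which held 66.8% of their variance. Below, log2 values are day 4 minus day 2 with the standard error of the fit, and levels are CPM in replicates 1 to 4.

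**Figure D1:**
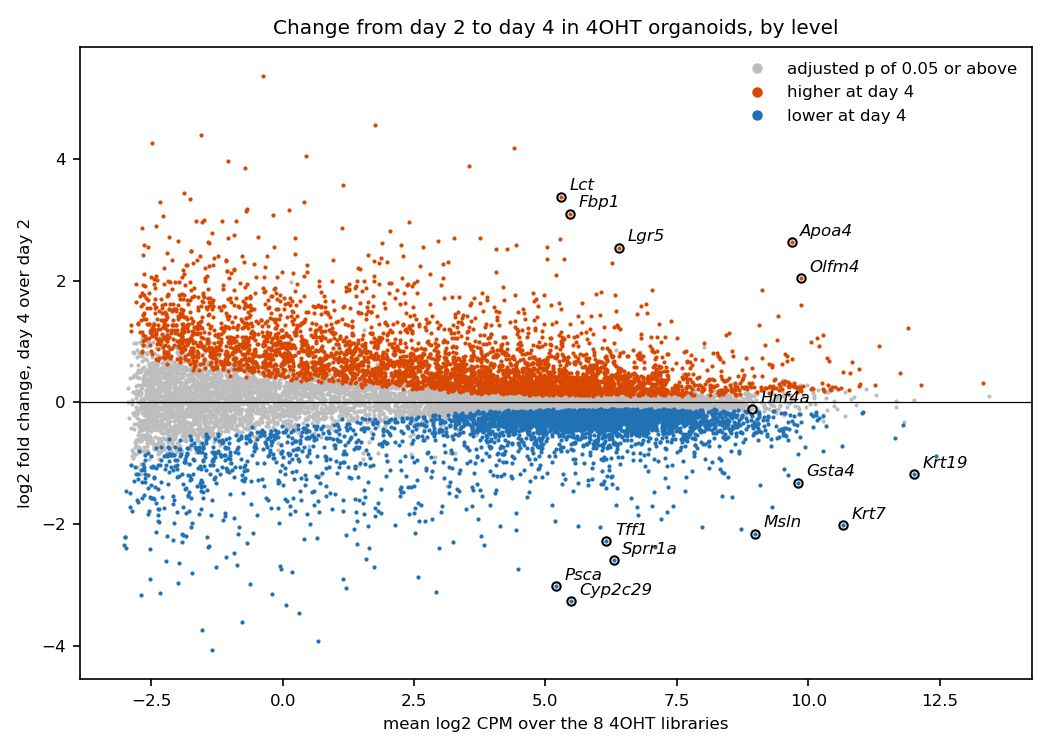
Change from day 2 to day 4 in the 4OHT organoids against mean level. Each dot is a gene: the horizontal axis gives mean log2 CPM over the 8 4OHT libraries and the vertical axis the log2 change, with the 4127 genes that rose and the 3753 that fell coloured. Large changes in both directions appear at high as well as low levels, and the cloud is centred close to 0.

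Among the more abundant genes whose days did not overlap, predicted gene names left out, those with the 10 largest rises included enzymes and apolipoproteins of enterocytes. Lct, the lactase of the brush border, went from 8.65, 6.87, 5.66 and 6.36 CPM at day 2 to 73.6, 108, 68.3 and 35.6 CPM at day 4 (log2 3.38 ± 0.33, edgeR adjusted p = 9.21e-05), with replicate 4 the lowest of day 4 and still above every day 2 library. The gluconeogenic enzyme gene Fbp1 (log2 3.10 ± 0.16), Bst1, a membrane ectoenzyme also made by Paneth cells (log2 2.71 ± 0.10), the stem cell marker Gkn3 (log2 2.70 ± 0.17), the apolipoprotein genes Apoc3 (log2 2.68 ± 0.11) and Apoa4 (log2 2.64 ± 0.18), the sphingomyelinase Enpp7 (log2 2.58 ± 0.32), the mitophagy gene Bnip3 (log2 2.55 ± 0.46) and Lgr5 were also among the 10 largest rises. The 10 largest falls were in Cyp2c29, a cytochrome P450, and in Psca, Mal, Sprr1a, Krt4, Amotl1, Slc4a11, Tff1, Abca12 and Msln, several of which are known from stratified or gastric epithelium; from Psca to Msln the log2 values ran from -3.02 to -2.16. Cyp2c29 stood at 83.2, 98.0, 78.4 and 69.2 CPM at day 2 and 8.58, 10.6, 8.83 and 5.79 CPM at day 4 (log2 -3.27 ± 0.18, edgeR adjusted p = 3.11e-06). Among genes that changed at least 2-fold, the 5 most abundant that rose included Tkfc, Olfm4, Gpi1 and Oat, and the 5 most abundant that fell were Krt19, Krt7, Gsta4, Gstm1 and Clca1.

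**Figure D2:**
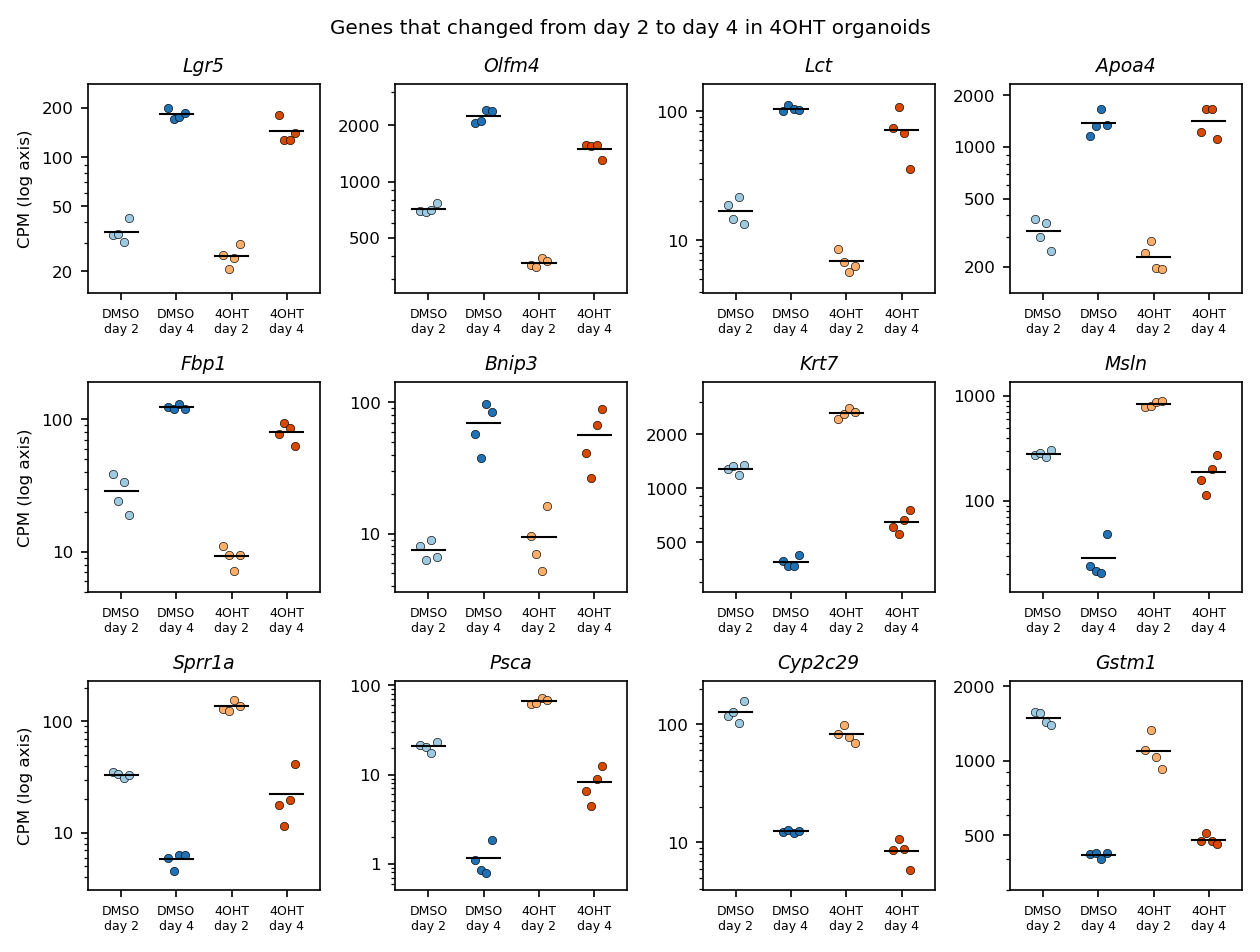
Levels of 12 genes in every library. Dots are single libraries (4 per group, replicates of DMSO and 4OHT organoids at day 2 and day 4), the line is the group mean, and the vertical axis is CPM on a log scale. In the 4OHT libraries the 4 dots of day 4 lie apart from the 4 of day 2 in all 12 panels: Lgr5, Olfm4, Lct, Apoa4, Fbp1 and Bnip3 lie higher, and the other 6 genes lower. For most of these genes, no overlap between the days was a condition of being named.

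Most genes of crypt base stem cells rose. Of 25 tested, 22 rose and 1 fell (median log2 0.96). Lgr5, the receptor for R-spondins that marks these cells, stood at 25.0, 20.5, 24.1 and 29.4 CPM at day 2 and 180.3, 127, 127 and 140.2 CPM at day 4 (log2 2.54 ± 0.14, edgeR adjusted p = 1.86e-06). Olfm4, a secreted glycoprotein of the same cells, went from 356, 347, 390.4 and 377 to 1565, 1553, 1566 and 1310.0 CPM (log2 2.04 ± 0.07, edgeR adjusted p = 1.36e-07). In both genes all day 4 libraries lay above all day 2 libraries, and for Olfm4 replicate 4 was the lowest of day 4. Axin2, the feedback inhibitor of Wnt signalling (log2 1.46 ± 0.08), Rgmb, a BMP co-receptor (log2 1.43 ± 0.07), Tnfrsf19 (log2 2.82 ± 0.16), the matrix gene Smoc2 (log2 0.97 ± 0.05) and Lrig1, a brake on EGF receptors (log2 0.65 ± 0.05), also rose. The member that fell was Cdk6, a cyclin-dependent kinase, from 132, 124, 142 and 141 to 123, 107, 99.3 and 110.4 CPM (log2 -0.28 ± 0.07, edgeR adjusted p = 0.00550); without 4OHT day 4 replicate 4 the counts were 22 and 2. These are bulk libraries, in which more cells of a type and more RNA per cell cannot be told apart, here and in every list below.

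Wnt targets mostly rose, and genes of Wnt ligands, receptors and secretion were called about as often as all genes tested. Of 23 tested Wnt target and feedback genes, 15 rose and 5 fell (median log2 0.55). Sp5, a transcription factor gene induced by Wnt, went from 0.942, 1.05, 1.12 and 1.30 to 5.85, 5.74, 5.73 and 4.73 CPM (log2 2.32 ± 0.13, edgeR adjusted p = 7.93e-07). The cyclin genes went the other way: Ccnd1 fell from 491, 482, 550.2 and 594 to 290.0, 275, 299 and 316 CPM (log2 -0.84 ± 0.07) and Ccnd2 from 1556, 1477, 1632 and 1725 to 878, 794, 908 and 1070.0 CPM (log2 -0.80 ± 0.08). Id2, an inhibitor of helix-loop-helix factors, fell as well (log2 -0.56 ± 0.12). Of 16 tested ligand, receptor and secretion genes, 5 rose and 5 fell (median log2 -0.02), near the shares over all genes tested (25.9% and 23.5%). The ligand gene Wnt3 (chr11:103774150-103817957), named in the title of the series, stood at 4.11, 4.67, 5.02 and 4.77 CPM at day 2 and 8.21, 8.59, 8.77 and 8.36 CPM at day 4 (log2 0.88 ± 0.08, edgeR adjusted p = 1.43e-05), with no overlap between the days. In DMSO it stood at 9.61, 8.96, 7.77 and 10.8 and 15.9, 16.4, 17.3 and 17.0 CPM (log2 0.86 ± 0.09). The difference between both changes was 0.03 on the log2 scale with a 95% interval of -0.22 to 0.28. Wnt4, another ligand gene, fell in 4OHT from 8.14, 7.59, 9.62 and 10.7 to 3.74, 2.99, 4.41 and 5.86 CPM (log2 -1.08 ± 0.19), while the receptor gene Fzd4 rose (log2 0.95 ± 0.11). Leaving out single libraries gave 3 to 5 rises and 3 to 7 falls in this list.

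All secretory lineages had more members that rose than fell. Of 23 tested Paneth cell genes that are not defensins, 17 rose and 0 fell (median log2 0.70; 17 and 1 without 4OHT day 4 replicate 4). Itln1, an intelectin, went from 653, 642, 579.5 and 651 to 1059.5, 1008, 1055 and 1007 CPM (log2 0.72 ± 0.06, edgeR adjusted p = 5.08e-06). The ribonuclease gene Rnase1 (log2 1.68 ± 0.09), the colipase gene Clps (log2 1.33 ± 0.09) and the surface marker Cd24a (log2 0.70 ± 0.05) rose, whereas Dmbt1, a mucosal scavenger protein, measured log2 -0.32 ± 0.19 (edgeR adjusted p = 0.204). Of 27 alpha-defensin genes 16 were in neither table, and of the 10 tested 9 rose and 0 fell. Defa24 measured log2 0.40 ± 0.06 and Defa22 log2 0.76 ± 0.08; these genes are near-identical copies, so reads may have been split between them. The secretory regulator list (Notch ligands and targets) held 11 that rose and 3 that fell of 22, among them Dll3 (log2 2.08 ± 0.15), the Notch target Hes1 (log2 0.34 ± 0.05) and the ligand gene Jag1 (log2 -0.80 ± 0.06).

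Goblet cell genes also moved both ways. Of 28 tested, 15 rose and 4 fell (median log2 0.26). Klk1, a kallikrein protease (log2 1.26 ± 0.07), and Foxa3, a transcription factor (log2 0.48 ± 0.04), rose. The chloride channel regulator Clca1, secreted into mucus, fell from 1049, 1093, 1010.0 and 949 to 499.6, 472, 472 and 455 CPM (log2 -1.10 ± 0.06, edgeR adjusted p = 7.43e-07), and the mucus lectin Zg16 fell from 929, 1028, 778 and 730.5 to 577, 601, 672 and 606 CPM (log2 -0.49 ± 0.10). Enteroendocrine transcription factors rose in 18 of 20 cases and fell in 0 (median log2 0.79), with Sox4 going from 102, 95.01, 96.9 and 106 to 224, 218, 203 and 195 CPM (log2 1.08 ± 0.06) and Neurog3, which starts this lineage, from 6.15, 6.04, 6.58 and 7.45 to 12.5, 11.9, 10.9 and 10.5 CPM (log2 0.81 ± 0.09). Foxa2 measured log2 0.61 ± 0.06. Of 22 hormone and granin genes, 14 rose and 1 fell (median log2 0.45). Ghrl, encoding ghrelin (log2 0.94 ± 0.10), the hormone-processing protease gene Pcsk1 (log2 0.62 ± 0.08) and the granin gene Chgb (log2 0.33 ± 0.08) rose, and Ddc, which decarboxylates the precursors of serotonin and dopamine, fell (log2 -0.51 ± 0.08). Of 24 tuft cell genes, 13 rose and 0 fell (median log2 0.63). Their transcription factor gene Pou2f3 went from 1.53, 1.42, 1.04 and 1.38 to 4.69, 4.21, 4.51 and 3.23 CPM (log2 1.63 ± 0.16), the cation channel gene Trpm5 measured log2 1.28 ± 0.18, and the prostaglandin synthase gene Hpgds log2 2.06 ± 0.32.

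Enterocyte genes moved both ways. Of 22 brush border hydrolases, 13 rose and 3 fell (median log2 0.49), whereas of 26 genes of microvillus structure 5 rose and 10 fell (median log2 -0.08; 3 to 5 and 7 to 12 without single libraries). Sis, the sucrase-isomaltase, went from 2117, 2026, 1619 and 1453 to 3472, 4114, 3332 and 2737 CPM (log2 0.93 ± 0.15, edgeR adjusted p = 6.82e-04), and the ceramidase gene Asah2 rose (log2 1.07 ± 0.08). The alkaline phosphatase gene Alpi fell from 368, 435, 330.3 and 290.4 to 203, 221, 269 and 250.4 CPM (log2 -0.58 ± 0.13), as did the metalloprotease subunit gene Mep1b (log2 -0.37 ± 0.10). Among structural genes, the scaffold gene Pdzk1 rose (log2 2.14 ± 0.12), and the cytoskeletal linker gene Ezr (log2 -0.54 ± 0.06), the keratin gene Krt20 (log2 -0.57 ± 0.10) and Vil1, encoding villin (log2 -0.23 ± 0.07), fell, Vil1 with an edgeR adjusted p of 0.0505 without 4OHT day 2 replicate 2. The villus tip list had 12 that rose and 10 that fell of 24. Of 29 nutrient transporter genes, 15 rose and 4 fell (median log2 0.32). The glucose transporter gene Slc5a1 (log2 1.02 ± 0.09) and the phosphate transporter gene Slc34a2 (log2 2.09 ± 0.11) rose, and the amino acid transporter gene Slc38a2 fell (log2 -0.57 ± 0.04).

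Metabolic genes of enterocytes mostly rose where they were called. Of 32 fat and sterol absorption genes, 15 rose and 1 fell (median log2 0.28). Apoa4, a chylomicron apolipoprotein, went from 242, 285, 197 and 195 to 1218, 1673, 1673 and 1118 CPM (log2 2.64 ± 0.18, edgeR adjusted p = 6.14e-06), and the fatty acid binding protein gene Fabp1 from 369.9, 473, 353 and 306 to 787, 1034, 1183 and 1001 CPM (log2 1.42 ± 0.15). Apoa1 (log2 0.92 ± 0.16) and the fatty acid transporter gene Cd36 (log2 1.72 ± 0.15) rose too. Of 36 fatty acid oxidation and ketogenesis genes, 22 rose and 2 fell (median log2 0.21), with the peroxisomal genes Acaa1b (log2 1.63 ± 0.09) and Ehhadh (log2 0.67 ± 0.06) among the rises. Cpt1a, which carries long-chain fatty acids into mitochondria, fell (log2 -0.28 ± 0.06). Of 12 genes of fructose breakdown and gluconeogenesis, 10 rose and 0 fell (median log2 0.94). Tkfc, the triokinase of fructose breakdown, rose from 916, 860.1, 686 and 702 to 1652, 2036, 1731 and 1343 CPM (log2 1.11 ± 0.14, edgeR adjusted p = 1.46e-04). Of 17 genes of citrulline and arginine synthesis 7 rose and 3 fell (median log2 0.19), with 1 fall without 4OHT day 2 replicate 1 or 2 or 4OHT day 4 replicate 3 or with upper-quartile scaling, and 5 by DESeq2. Cps1, the carbamoyl phosphate synthetase of citrulline synthesis, rose from 335, 336, 307 and 279.9 to 792, 883, 719.9 and 612 CPM (log2 1.27 ± 0.11), and the ornithine aminotransferase gene Oat rose as well (log2 1.61 ± 0.08).

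Regulators of these programs were divided. Among 36 transcription factors of intestinal identity, 14 rose and 8 fell (median log2 0.05), where 25.9% and 23.5% of all genes tested did. Ppargc1a, a coactivator of mitochondrial genes, went from 6.74, 5.16, 5.64 and 6.20 to 14.2, 12.9, 14.3 and 14.2 CPM (log2 1.24 ± 0.09), and Creb3l3, a factor of lipid metabolism, rose (log2 0.74 ± 0.14). Nuclear genes of oxidative phosphorylation were mostly not called, with 3 of 53 that rose and 6 that fell; 2 rose and 12 fell without 4OHT day 4 replicate 4, 5 rose without 4OHT day 4 replicate 1, 1 rose without 4OHT day 2 replicate 3 or 4 or 4OHT day 4 replicate 3, and 6 rose with upper-quartile scaling. Of 15 mitochondrially encoded genes 0 rose and 1 fell, and without 4OHT day 4 replicate 4 the counts were 4 and 1. The complex IV gene mt-Co1 stood at 11465, 11094, 10440.2 and 10148 CPM at day 2 and 13786, 12567, 12009 and 7423 CPM at day 4, where replicate 4 was the lowest. Of 26 ion and water transport genes 13 rose and 5 fell. Of 25 iron and metal genes 11 rose and 6 fell, and the manganese exporter gene Slc30a10 rose from 6.51, 5.77, 4.08 and 6.60 to 27.8, 29.4, 36.9 and 37.8 CPM (log2 2.52 ± 0.16).

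Genes of glycolysis and the hypoxia response rose in 27 of 35 cases and fell in 1 (median log2 0.74; 25 and 3 without 4OHT day 4 replicate 4). Bnip3 stood at 9.65, 7.06, 5.23 and 16.1 CPM at day 2 and 41.1, 26.6, 67.6 and 89.2 CPM at day 4 (log2 2.55 ± 0.46, edgeR adjusted p = 0.00210). The lactate exporter gene Slc16a3 stood at 27.3, 19.1, 16.5 and 41.3 CPM at day 2 and 98.4, 58.5, 157 and 197 CPM at day 4 (log2 2.30 ± 0.43). In both genes the days did not overlap, but the libraries of a day spread widely, with replicates 3 and 4 the highest of day 4. The DMSO libraries of day 4 spread alike: Bnip3 stood there at 57.8, 37.9, 98.0 and 84.7 CPM and Slc16a3 at 113, 63.8, 179.5 and 165 CPM. Ankrd37, a hypoxia-induced gene, stood at 5.39, 3.76, 3.95 and 6.54 and 21.6, 15.2, 33.6 and 42.7 CPM (log2 2.52 ± 0.34), and the growth factor gene Vegfa at 49.9, 46.3, 48.8 and 53.9 and 106, 87.9, 132 and 144 CPM (log2 1.24 ± 0.13). Among glycolytic enzymes, Aldoc (log2 1.78 ± 0.18), Gpi1 (log2 1.06 ± 0.09), Pgk1 (log2 0.93 ± 0.18), Eno1 (log2 0.74 ± 0.10) and Gapdh (log2 0.67 ± 0.09) rose. The member that fell was Hif1a itself, the regulated subunit of the hypoxia-inducible factor (log2 -0.45 ± 0.14, edgeR adjusted p = 0.0209). That call was lost without 4OHT day 2 replicate 2 or 3 or 4OHT day 4 replicate 1 or 3 (edgeR adjusted p from 0.0502 to 0.0561).

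Most genes of fetal and regenerating epithelium fell. Of 38 tested, 32 fell and 0 rose (median log2 -1.32), 23 of them at least 2-fold, and their summed level went from between 24090 and 26330 CPM at day 2 to between 9922 and 14100 CPM at day 4. Krt7, a keratin of simple ductal epithelium, stood at 2422, 2593, 2800.0 and 2647 CPM at day 2 and 607, 553, 662 and 752 CPM at day 4 (log2 -2.02 ± 0.09, edgeR adjusted p = 3.93e-07). Msln, the surface protein mesothelin, went from 786, 793, 883 and 889 to 157, 113, 203 and 275 CPM (log2 -2.16 ± 0.24, edgeR adjusted p = 1.22e-04). Anxa10, an annexin, went from 219.7, 234, 259.7 and 229 to 47.4, 36.7, 64.6 and 98.2 CPM (log2 -1.93 ± 0.27). In Msln and Anxa10 replicate 4 was the highest of day 4, and every day 4 library lay below every day 2 library. The keratin genes Krt8 (log2 -0.89 ± 0.07) and Krt19 (log2 -1.19 ± 0.08), the calcium-binding genes S100a6 (log2 -1.72 ± 0.20) and S100a11 (log2 -1.23 ± 0.16), the interleukin-1 antagonist gene Il1rn (log2 -1.71 ± 0.31) and the alarmin gene Il33 (log2 -1.46 ± 0.12) fell.

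Most gastric and squamous genes fell as well. This list shares members with the fetal and regenerative list, Anxa10 among them, so the counts and sums of both lists are not independent. Of 35 listed, 27 were in both tables and 25 were tested, of which 19 fell and 3 rose (median log2 -1.22), and their sum went from between 1266 and 1488 CPM to between 303.5 and 690.7 CPM. Psca, a surface protein of stomach and prostate, went from 61.5, 63.2, 71.3 and 69.2 to 6.57, 4.44, 9.003 and 12.6 CPM (log2 -3.02 ± 0.27, edgeR adjusted p = 4.46e-05). Sprr1a, a cornified envelope precursor, went from 129, 123, 154 and 137 to 17.6, 11.4, 19.6 and 41.2 CPM (log2 -2.59 ± 0.35, edgeR adjusted p = 4.83e-04). Replicate 4 was the highest day 4 library for both, well below day 2. The gastric trefoil gene Tff1 (log2 -2.28 ± 0.31), Krt4, a keratin of the oesophagus (log2 -2.38 ± 0.28), and Mal, a membrane trafficking protein (log2 -2.75 ± 0.23), fell too. The stem cell gene Gkn3, first known from stomach, and the mucin gene Muc1 (log2 1.79 ± 0.31) rose, Muc1 at under 1 CPM in each 4OHT library. The keratin genes Krt6a and Krt16 were present in the day 2 table alone (singled out after their counts were seen), with 28, 20, 13 and 22 counts and 27, 17, 21 and 31 counts in the 4OHT libraries. The gastric gene Gif, singled out in the same way, was present in the day 4 table alone, with 207, 106, 133 and 72 counts in the 4OHT libraries.

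Hippo pathway and Yap target genes moved both ways. Of 28 tested, 12 fell and 6 rose (median log2 -0.10), where 23.5% of all genes tested fell and 25.9% rose. The adaptor genes Ajuba (log2 -2.04 ± 0.15) and Amotl1 (log2 -2.34 ± 0.22) fell, as did the phosphatase gene Ptpn14 (log2 -0.99 ± 0.12), while Tead2, the DNA-binding partner, rose (log2 0.77 ± 0.06). Yap1, the coactivator of the pathway, fell from 127, 127, 131 and 130.3 to 118, 118, 118 and 122 CPM (log2 -0.11 ± 0.04, edgeR adjusted p = 0.0345), a call lost with upper-quartile scaling (edgeR adjusted p = 0.233), with no filter on low counts (0.0608), with the replicate block (0.0666) and in 6 of the 8 fits without 1 library (edgeR adjusted p up to 0.101). Of 29 immediate early and heat shock genes, 15 fell and 6 rose (median log2 -0.22). The AP-1 subunit gene Fosl1 fell from 5.72, 6.75, 7.92 and 7.81 to 1.505, 1.11, 1.84 and 2.51 CPM (log2 -2.01 ± 0.21), and Jun, another AP-1 subunit, rose from 15.1, 14.8, 15.8 and 17.5 to 45.9, 42.4, 39.7 and 38.1 CPM (log2 1.40 ± 0.07). Of 29 tight junction and desmosome genes, 16 fell and 1 rose (median log2 -0.17), with the desmosomal linker gene Ppl (log2 -1.12 ± 0.08) and the tight junction scaffold gene Tjp1 (log2 -0.84 ± 0.06) among the falls and the claudin gene Cldn15 the rise (log2 0.40 ± 0.10).

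Glutathione and Nrf2 target genes, which detoxify electrophiles and oxidants, fell in 25 of 38 cases and rose in 3 (median log2 -0.42). Gclc, the rate-limiting enzyme of glutathione synthesis, went from 443, 511, 448 and 411 to 181, 211, 204 and 219 CPM (log2 -1.15 ± 0.08, edgeR adjusted p = 2.26e-06), and G6pdx, which makes NADPH, fell (log2 -0.82 ± 0.05). The transferase genes Gsta4 (log2 -1.32 ± 0.13) and Gstm1 (log2 -1.19 ± 0.10) fell, and Gstt1 rose (log2 0.68 ± 0.06). Of 47 genes of cytochrome P450, conjugation and xenobiotic handling, 13 rose and 9 fell (median log2 0.03), near the shares over all genes tested. Cyp1a1, which the aryl hydrocarbon receptor induces, fell from 6.76, 9.68, 6.76 and 5.80 to 2.43, 2.80, 2.73 and 2.37 CPM (log2 -1.48 ± 0.16), and the carboxylesterase gene Ces1d rose from 18.6, 17.9, 13.2 and 18.4 to 57.3, 53.4, 52.0 and 43.5 CPM (log2 1.61 ± 0.12).

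Genes of ribosomal proteins and genes of ribosome assembly moved in opposite directions. Of 54 cytosolic ribosomal protein genes, 36 rose and 0 fell, by a median of 0.23 on the log2 scale, with Rplp0 (log2 0.28 ± 0.07), Rpl4 (log2 0.27 ± 0.05) and Rpl22 (log2 0.36 ± 0.06) among them; many have processed copies elsewhere in the genome, so single values are uncertain. Of 36 genes of ribosome biogenesis and Myc targets, 27 fell and 1 rose (median log2 -0.30). Bop1, needed for the large subunit, went from 185, 193, 192 and 190.3 to 123, 135, 129 and 122 CPM (log2 -0.57 ± 0.05), and the spermidine synthase gene Srm fell (log2 -0.61 ± 0.06). The member that rose was Mycn, at under 1 CPM in each 4OHT library (log2 0.76 ± 0.22). Nucleolin, Ncl, measured log2 -0.20 ± 0.08 (edgeR adjusted p = 0.0606).

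Cell cycle genes differed by list. Of 38 DNA replication genes, 5 rose and 4 fell (median log2 0.05); 9 rose and 4 fell without 4OHT day 4 replicate 4, 10 rose with upper-quartile scaling, and as few as 3 rose without other single libraries. The cyclin gene Ccne1 fell (log2 -0.57 ± 0.07), and the topoisomerase gene Top2a measured log2 0.03 ± 0.08. Of 42 mitosis genes, 13 fell and 2 rose (median log2 -0.09); 7 fell and 4 rose with upper-quartile scaling, and the same without 4OHT day 2 replicate 4, whereas 13 fell and 4 rose without 4OHT day 4 replicate 4. Of 17 genes of Cdk inhibitors and quiescence, 8 rose and 1 fell (median log2 0.20). The proliferation marker Mki67 stood at 315, 299, 328 and 297 CPM at day 2 and 324, 362, 227 and 215 CPM at day 4 (log2 -0.13 ± 0.16, edgeR adjusted p = 0.545), where replicate 1 lay within the day 2 range, replicate 2 above it and replicates 3 and 4 below it. Kif23, a motor of cytokinesis, fell (log2 -0.48 ± 0.05), and Stmn1, which destabilises microtubules, rose (log2 0.71 ± 0.05). Of 29 p53 targets, 17 fell, 4 rose and 8 were not called (median log2 -0.36). Mdm2, the ligase that degrades p53, fell from 85.4, 88.3, 88.9 and 94.0 to 56.9, 56.9, 62.2 and 65.5 CPM (log2 -0.55 ± 0.05, edgeR adjusted p = 2.02e-05). Zmat3 (log2 -0.63 ± 0.06) and Ccng1 (log2 -0.50 ± 0.14) also fell. The Cdk inhibitor gene Cdkn1a, among the members with the highest level, was not called (log2 0.004 ± 0.13, edgeR adjusted p = 0.980). It stood at 264, 283, 265 and 265 CPM at day 2 and 233, 204, 303 and 336 CPM at day 4. Of 34 interferon response genes, 17 rose and 2 fell (median log2 0.41). Ifit1 went from 0.872, 1.10, 0.940 and 0.932 to 4.51, 3.86, 5.52 and 6.71 CPM (log2 2.42 ± 0.18), and Oasl2 (log2 1.58 ± 0.18) and B2m, the light chain of MHC class I (log2 0.57 ± 0.06), rose, while Mx1 fell (log2 -0.65 ± 0.13).

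**Figure D3:**
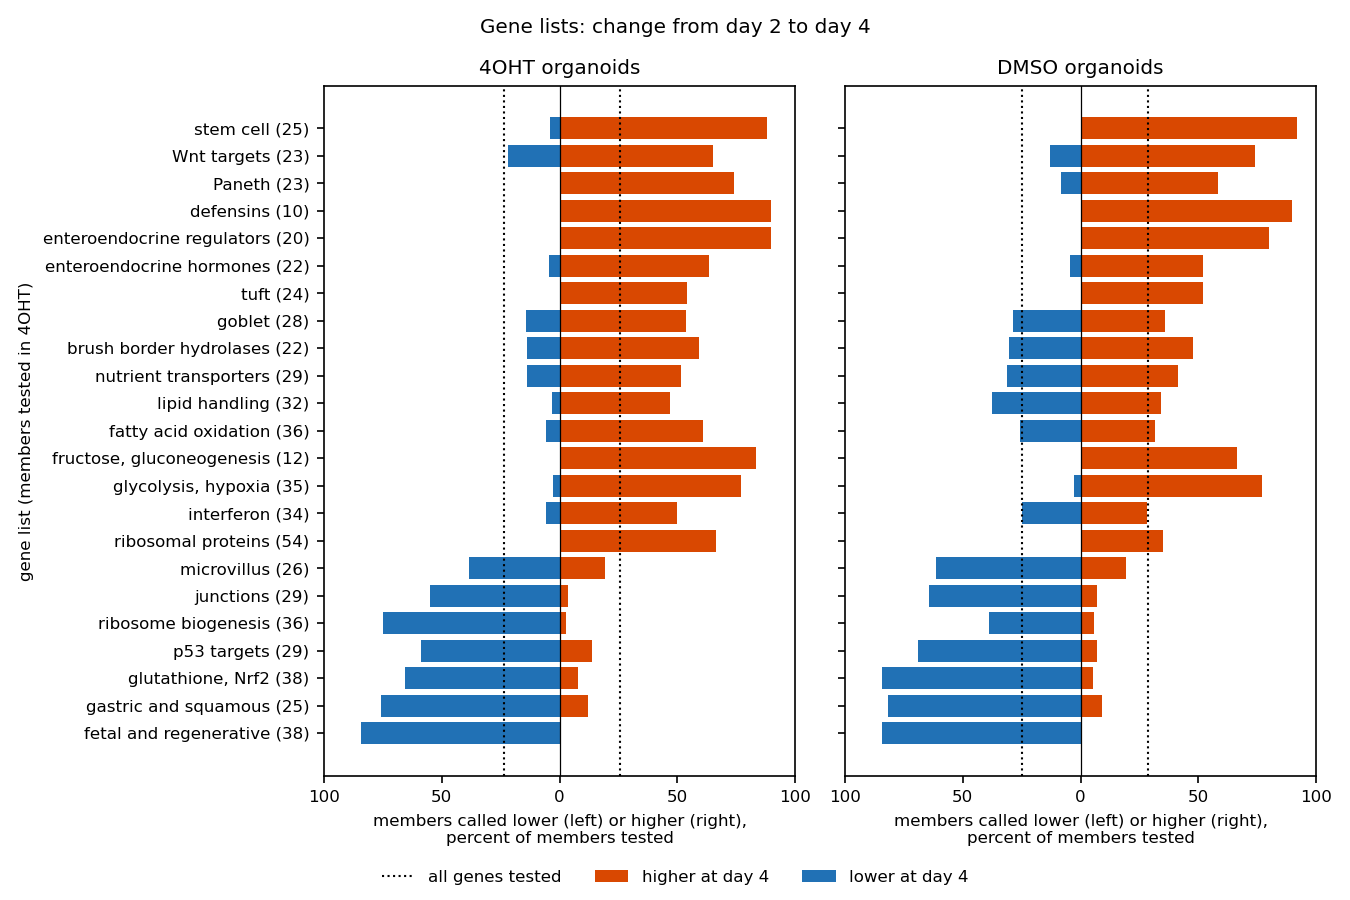
Share of tested members of 23 gene lists called higher or lower at day 4. The horizontal axis is percent of tested members, to the right for higher and to the left for lower, in the 4OHT and in the DMSO organoids; dotted lines mark the shares over all genes tested (25.9% and 23.5% in 4OHT). Stem cell genes (22 of 25 higher) reach far beyond the line for higher, and fetal and regenerative genes (32 of 38 lower) far beyond that for lower, in both treatments.

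Most of what changed in the 4OHT organoids also changed in the DMSO organoids, which share no library with them. In DMSO, 4616 of 16088 tested genes (28.7%) rose and 3989 (24.8%) fell, 922 and 525 of them at least 2-fold. Of the 15685 genes tested in every fit, 3185 rose in both and 2674 fell in both with no called difference between the changes. Across these genes, which are not independent replicates, the log2 changes had a Pearson correlation of 0.867 and a Spearman correlation of 0.819. The least-squares slope of the 4OHT change on the DMSO change was 0.795. Noise in the DMSO changes lowers such a slope, so it does not measure how large the 4OHT changes were relative to DMSO. Of 25 stem cell genes 23 rose and 0 fell in DMSO, of 35 glycolysis and hypoxia genes 27 and 1, and of 38 fetal and regenerative genes 0 and 32. Other lists differed in their calls. Of 38 DNA replication genes 26 rose and 1 fell in DMSO (5 and 4 in 4OHT). For 42 mitosis genes the counts were 18 and 5 (2 and 13), for 53 oxidative phosphorylation genes 1 and 27 (3 and 6). For 32 fat and sterol absorption genes they were 11 and 12 (15 and 1). The difference between the changes was called for 0 DNA replication and 0 oxidative phosphorylation genes, 1 mitosis gene and 1 fat absorption gene. The DMSO change of Lgr5 was log2 2.41 ± 0.09, that of Krt7 log2 -1.71 ± 0.07 and that of Cyp2c29 log2 -3.34 ± 0.12. Olfm4 stood at 2060.2, 2099.6, 2414 and 2391 CPM in DMSO at day 4, above every 4OHT library.

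**Figure D4:**
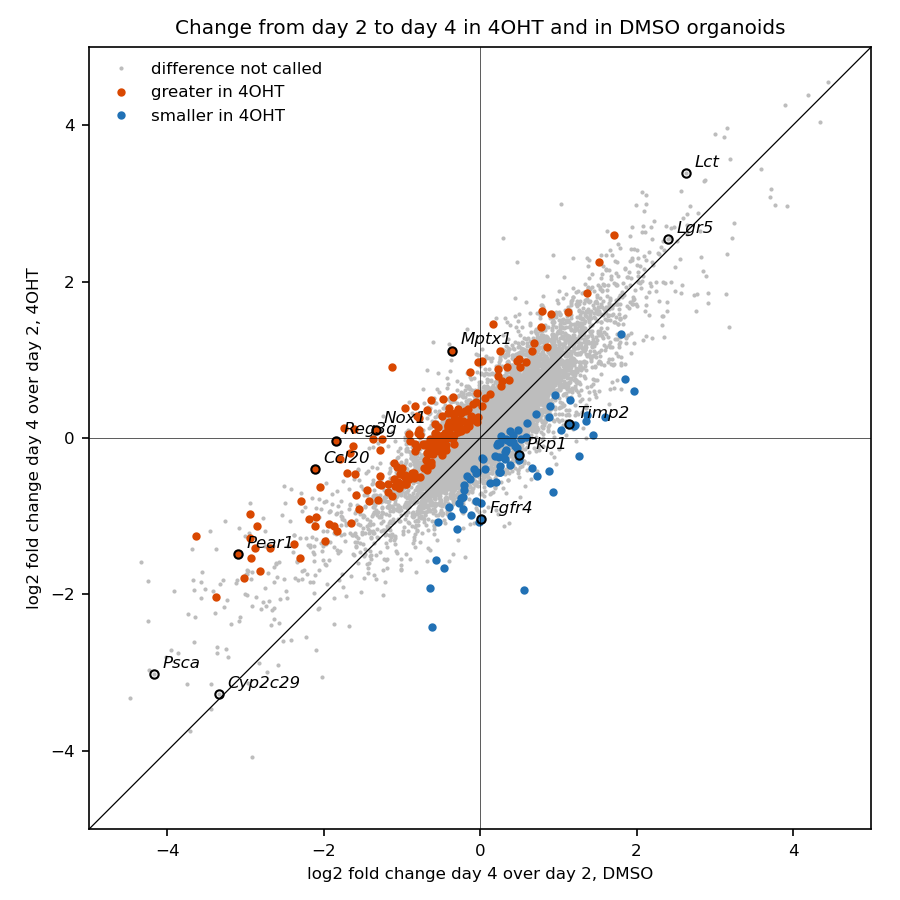
Change from day 2 to day 4 in DMSO organoids (horizontal) and in 4OHT organoids (vertical), both log2, for 15675 genes, with a repeated symbol drawn once. Orange dots are genes whose signed log2 change was greater in 4OHT (a smaller fall included) and blue dots genes whose signed change was smaller, by the test of the difference. Beyond the plotted range lie 5 genes. The cloud runs along the diagonal, and more coloured dots lie above the diagonal than below. The least-squares slope was 0.795, a value that noise in the DMSO changes lowers.

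In the main fit, which had no replicate block, the change was called different between 4OHT and DMSO organoids for few genes. By the interaction term over all 16 libraries, the change was greater in 4OHT for 199 of 16597 tested genes (1.20%) and smaller for 79 (0.476%), 39 and 19 of them by at least 2-fold. Greater and smaller refer to the signed log2 change, here and below. A gene that fell less in 4OHT than in DMSO thus counts as greater, and one that rose less counts as smaller. The counts depended on the fit: DESeq2 gave 600 and 247, and with the replicate number within each day as a block, which at day 4 matched libraries that deviated together, edgeR gave 1170 and 680, with all 278 calls of the unblocked fit among them. Single libraries also moved the counts, from 66 and 28 without 4OHT day 2 replicate 3 to 502 and 225 without DMSO day 2 replicate 4. For the single genes whose called difference is given in the next 3 paragraphs, the call was kept in every alternative fit except where stated; counts of list members were not as stable, and their ranges stand beside them. Of the 199, 78 fell in DMSO and were not called in 4OHT, 65 fell in both, 20 rose in both, 19 rose in 4OHT alone and 16 rose in 4OHT and fell in DMSO. Of the 79, 29 rose in DMSO and were not called in 4OHT, 16 fell in 4OHT alone, 14 fell in both, 12 fell in 4OHT and rose in DMSO and 8 rose in both.

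Antimicrobial and epithelial defence genes made up part of the first group. Of 22 tested in the list of Reg lectins and antimicrobial genes, 11 had a greater change in 4OHT and 0 a smaller one (6 to 12 and 0 without single libraries, lowest without 4OHT day 2 replicate 3 or 4). In 4OHT 5 of 21 rose and 6 fell (median log2 -0.10), and in DMSO 3 rose and 15 fell (median log2 -0.98). Reg3g, a lectin that kills Gram-positive bacteria, stood in 4OHT at 465, 468, 366 and 309 CPM at day 2 and 418, 389, 377 and 379.6 CPM at day 4. In DMSO it stood at 375, 289.6, 307 and 218 CPM at day 2 and 95.3, 80.2, 75.3 and 75.9 CPM at day 4. The difference between the changes was log2 1.82 ± 0.21 (edgeR adjusted p = 4.30e-04): the days overlapped in 4OHT and did not in DMSO. Ccl20, a chemokine for dendritic cells and lymphocytes, fell in 4OHT from 6.23, 6.93, 6.68 and 6.12 to 4.49, 4.19, 5.48 and 5.43 CPM and in DMSO from 8.35, 7.45, 7.46 and 7.31 to 1.44, 1.949, 1.41 and 2.18 CPM (difference log2 1.72 ± 0.17, edgeR adjusted p = 6.83e-05). Nox1, the superoxide-producing oxidase, stood in 4OHT at 40.3, 43.0, 44.9 and 35.4 and 42.5, 41.7, 43.3 and 47.9 CPM and in DMSO at 50.5, 54.1, 58.6 and 55.6 and 17.7, 19.4, 24.2 and 24.8 CPM (difference log2 1.45 ± 0.13, edgeR adjusted p = 6.83e-05). Mptx1, a pentraxin, rose in 4OHT from 12.5, 10.4, 7.39 and 9.27 to 24.3, 22.7, 21.3 and 17.1 CPM (log2 1.12 ± 0.16) and measured log2 -0.36 ± 0.17 in DMSO (difference log2 1.48 ± 0.26, edgeR adjusted p = 0.0121). Of the same list Reg1 rose in 4OHT (log2 1.12 ± 0.10; difference log2 0.86 ± 0.18), a call lost in 7 of the 16 fits without 1 library, and within 4OHT Tifa (log2 1.72 ± 0.13) and the immunoglobulin transporter gene Pigr (log2 0.49 ± 0.11) rose and Il18 fell (log2 -1.01 ± 0.09).

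Some goblet, detoxification and fatty acid genes fell less or rose more in 4OHT than in DMSO. Clca1 fell by 1.10 on the log2 scale in 4OHT and by 1.93 in DMSO, where it went from 474, 499, 461 and 484 to 135, 111, 119 and 133 CPM (difference log2 0.84 ± 0.09, edgeR adjusted p = 9.47e-05). Zg16 differed alike (log2 0.80 ± 0.14). Of 48 xenobiotic genes 13 had a greater change in 4OHT and 0 a smaller one, but without 4OHT day 2 replicate 3, 4OHT day 4 replicate 3 or DMSO day 2 replicate 3 only 2 had a greater change, and without DMSO day 2 replicate 4 it was 20. Ces2a stood at log2 0.10 ± 0.13 in 4OHT and log2 -0.78 ± 0.07 in DMSO, and Cyp3a13 at log2 -0.08 ± 0.10 and log2 -0.72 ± 0.05. Of 38 glutathione and Nrf2 genes 8 had a greater and 0 a smaller change (3 to 13 and 0 without single libraries), with Gstm1 (log2 0.64 ± 0.11) and the aldo-keto reductase gene Akr1b8 (log2 0.99 ± 0.18) among them. Of 36 fatty acid oxidation genes 6 had a greater and 0 a smaller change (1 to 12 and 0 without single libraries); Acaa1b rose by log2 1.63 ± 0.09 in 4OHT and log2 0.79 ± 0.10 in DMSO. Fgf15, the bile acid hormone, fell from 15.1, 14.1, 15.3 and 14.5 to 5.81, 2.99, 4.09 and 7.32 CPM in 4OHT and from 15.0, 16.3, 14.3 and 16.6 to 2.28, 1.68, 1.946 and 2.18 CPM in DMSO (difference log2 1.40 ± 0.27). Of the interferon genes Irf7 rose in 4OHT (log2 0.53 ± 0.12) and fell in DMSO (log2 -0.34 ± 0.08), and Ifit1bl1, whose days overlapped in 4OHT (log2 -0.01 ± 0.20), fell in DMSO (log2 -1.37 ± 0.10). The receptor gene Pear1, the synaptotagmin gene Syt8 and the gastric gene Vsig1 completed this set, with differences of log2 1.62 ± 0.18, log2 1.28 ± 0.22 and log2 1.88 ± 0.32; Vsig1 measured log2 0.13 ± 0.20 in 4OHT and fell in DMSO (log2 -1.75 ± 0.20). The differences of Capg (log2 1.67 ± 0.38), Sptssb (log2 1.49 ± 0.30) and Arhgap40 (log2 1.35 ± 0.32), which fell in both treatments, were larger than most but were lost without many of the single libraries.

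Genes whose change was smaller in 4OHT included some that rose in DMSO and fell, or were not called, in 4OHT. Fgfr4, a receptor for FGF15, fell in 4OHT from 21.2, 22.3, 22.8 and 23.4 to 10.99, 12, 11.1 and 9.42 CPM and stood in DMSO at 20.8, 22.0, 19.2 and 22.6 and 21.4, 24.8, 17.3 and 21.0 CPM (difference log2 -1.04 ± 0.13, edgeR adjusted p = 4.30e-04). Its libraries of 4OHT day 4 lay below all other libraries of the series. Pkp1, a desmosomal plakophilin, fell in 4OHT from 43.5, 40.9, 48.0 and 45.3 to 37.3, 40.4, 38.2 and 36.3 CPM and rose in DMSO from 53.01, 54.7, 53.2 and 56.2 to 72.2, 75.9, 76.2 and 78.4 CPM (difference log2 -0.70 ± 0.07, edgeR adjusted p = 6.83e-05). Cdk6 rose in DMSO (log2 0.50 ± 0.08) and fell in 4OHT (difference log2 -0.77 ± 0.11), as did Fam84a (log2 0.39 ± 0.05 against log2 -0.35 ± 0.08). The metalloprotease inhibitor gene Timp2 went in DMSO from 6.92, 6.59, 6.50 and 7.80 to 14.5, 14.6, 15.2 and 16.1 CPM and stood in 4OHT at 17.8, 15.0, 18.3 and 23.2 CPM at day 2 and 20.3, 18.4, 20.9 and 24.1 CPM at day 4 (difference log2 -0.95 ± 0.15). Rgs12, a brake on G protein signalling, measured log2 0.11 ± 0.09 in 4OHT and log2 1.04 ± 0.08 in DMSO. The differences of the Wnt targets Apcdd1 (log2 -1.48 ± 0.24) and Ccnd1 (log2 -0.56 ± 0.10) were called, and that of Wnt3 was not. Ptpn14, Phldb2 and Sema3c, with differences of log2 -0.86 ± 0.20, log2 -0.86 ± 0.18 and log2 -0.74 ± 0.17, were also among the 10 largest, and their calls were lost without several of the single libraries.

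**Figure D5:**
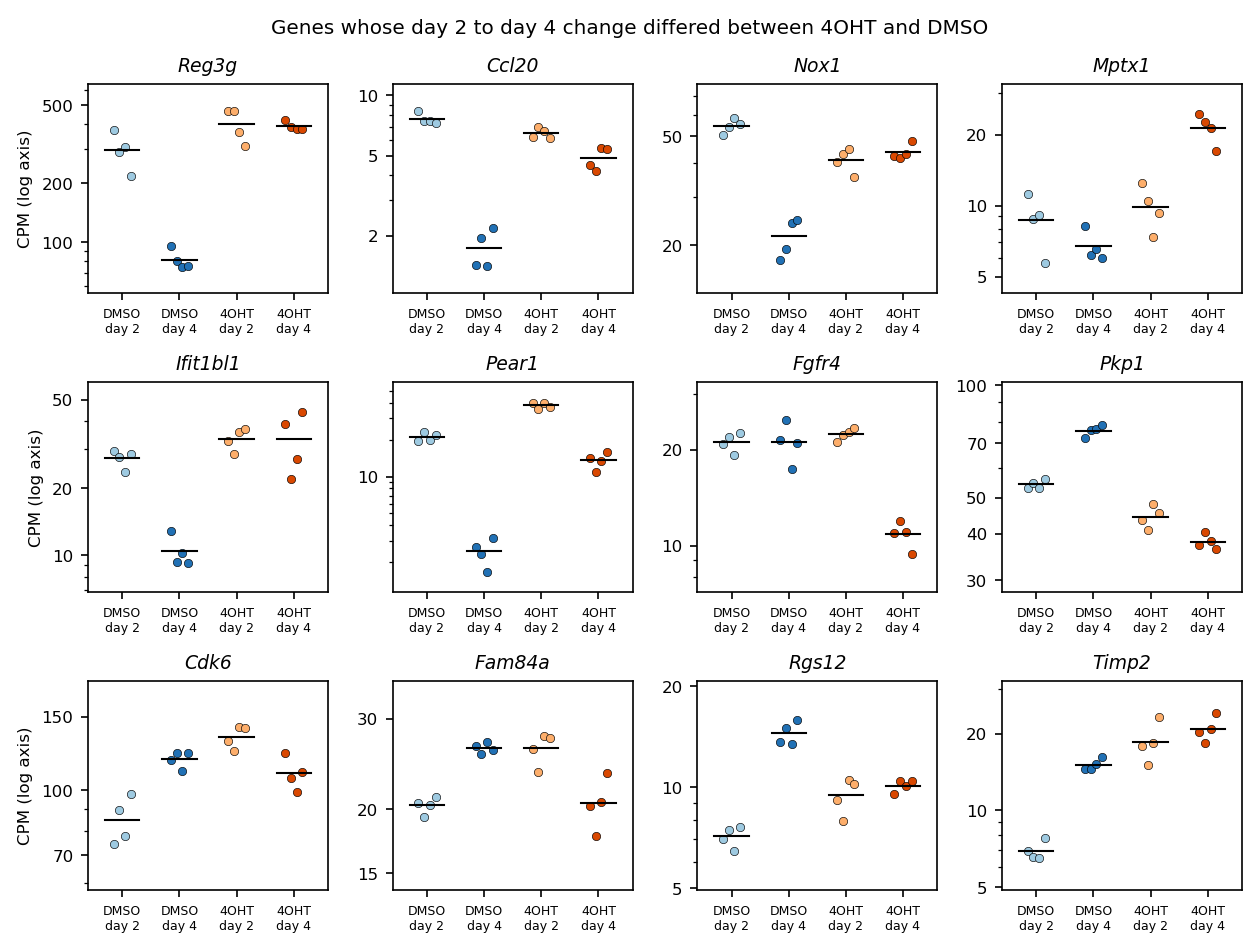
Levels of 12 genes whose change from day 2 to day 4 differed between 4OHT and DMSO organoids. Dots are single libraries (4 per group), the line is the group mean, and the vertical axis is CPM on a log scale. For Reg3g, Nox1 and Ifit1bl1 the 2 days overlap in 4OHT while the day 4 libraries of DMSO lie lower, and for Fgfr4 the day 4 libraries of 4OHT lie below all others.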

How the data were processed

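RNA of 16 organoid samples was extracted, and poly(A) RNA from 250 ng of total RNA was made into directional libraries, per the labels' protocols. The authors deposited a table of raw counts per gene for each day. Reads were converted with bcl2fastq 1.8.4 and aligned with STAR 2.4.0f1 to GRCm38, per the submitters' processing notes; no source used here gives the counting tool, annotation or strand setting, so overlapping and antisense genes are uncertain. There were 20790 genes for day 2 and 20658 for day 4. A gene in either had 10 or more counts summed over its 8 libraries, and 19964 shared an id. A gene in 1 table only (826 and 694) was not tested.

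The counts as deposited were tested with edgeR 4.0.16 (R 4.3.3; robust quasi-likelihood fit after filterByExpr and TMM scaling, Benjamini-Hochberg adjustment over all genes tested). The 4OHT and DMSO changes were fitted on 8 libraries each, the difference between them as an interaction over 16. CPM are TMM-scaled over all 16 libraries. Intervals are 95%. Alternatives were DESeq2 1.42.0, other scalings and filters, thinning to the smallest library, a replicate block and leaving out each library. No pair of libraries agreed within sampling noise. The fits were tested on simulated data.

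The members and the 50 gene lists were chosen with earlier results of these data known. Genes named are Hnf4a, Hnf4g and Wnt3; the 10 largest rises and falls with a mean log2 CPM of at least 3 and no overlap between days, without predicted gene names; the 5 most abundant that rose or fell at least 2-fold; the 10 largest differences each way; and from each list members with the smallest p, the highest level or a direction against the majority. A few genes that this rule names are not reported here.

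Same-numbered libraries of DMSO and 4OHT deviated from their group means together at day 4 (correlations 0.632 to 0.81) but not at day 2 (-0.11 to 0.475). Between day 2 and day 4 of 4OHT the correlations ran from -0.228 to 0.392, and only replicates 1 and 4 matched best with their own number. The main fits have no block. For the difference between 4OHT and DMSO, the main fit therefore leaves the match at day 4 unused, and the counts with the block are given beside it. Promoters come from RefSeq by gene symbol, with entries for 10664 tested genes.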

Additional observations from a re-analysis of the deposited data

Results flagged for a closer look

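In 13 of 328 groups of 4 libraries of the named genes, the highest or lowest library lay far from the others by Dixon's test, where chance gives about 5%. Cdkn1a is not among the named genes counted here and below. In 5 of the 13 the library was 4OHT day 4 replicate 4. It stood at 1310 CPM for Olfm4 (the others 1553 to 1566), 4.73 for Sp5 (5.73 to 5.85), 0.601 for Hpgds (1.20 to 1.32), 11.9 for Cd36 (14.8 to 15.2) and 122 for Yap1 (118 in the others, rounded). The other 3 libraries set apart at day 4 were replicate 1 for Pcsk1 (11.8 CPM, the others 10.01 to 10.12) and replicate 2 for Hes1 (105 CPM, the others 96.9 to 98.1) and Ppargc1a (12.9 CPM, the others 14.2 to 14.3). At day 2 they were replicate 1 for Smoc2 (184 CPM, the others 174 to 176), replicate 2 for Zmat3 (83.4 CPM, the others 87.1 to 87.7), replicate 3 for Itln1 (579.5 CPM, the others 642 to 653) and Ces1d (13.2 CPM, the others 17.9 to 18.6), and replicate 4 for Rplp0 (2321 CPM, the others 2207 to 2214).

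For 40 of the 164 named genes, the change from day 2 to day 4 differed between 4OHT and DMSO organoids by edgeR's interaction term. Genes were named partly for their differences, so this share follows from the choice. Over all 16597 genes tested, 1.20% had a greater and 0.476% a smaller change. The values below are log2 changes in 4OHT minus those in DMSO. Differences above 1 were measured for the gastric gene Vsig1 (1.88), Reg3g (1.82), Ccl20 (1.72), Capg (1.67), Pear1 (1.62), Sptssb (1.49), Mptx1 (1.48), Nox1 (1.45), Fgf15 (1.40), Ifit1bl1 (1.37), Arhgap40 (1.35) and Syt8 (1.28). Detoxification genes with a positive difference were Akr1b8 (0.99), Ces2a (0.88), Gsta4 (0.67), Gstm1 (0.64) and Cyp3a13 (0.64). Among goblet, Reg and interferon genes the differences were 0.84 for Clca1, 0.80 for Zg16, 0.86 for Reg1 and 0.88 for Irf7. Enterocyte and metabolic genes gave 0.84 (Acaa1b), 0.72 (Alpi), 0.70 (Mep1b) and 0.49 (Oat). The remaining positive ones were Ddc (0.41), Zmat3 (0.41) and Smoc2 (0.39). Negative differences were measured for Apcdd1 (-1.48), Mycn (-1.09), Fgfr4 (-1.04), Timp2 (-0.95), Rgs12 (-0.92), Ptpn14 (-0.86), Phldb2 (-0.86), Cdk6 (-0.77), Sema3c (-0.74), Fam84a (-0.73), Pkp1 (-0.70) and Ccnd1 (-0.56). Under some alternative fits the calls of Capg, Sptssb, Arhgap40, Gsta4, Reg1, Alpi, Oat, Ddc, Zmat3, Mycn, Ptpn14, Phldb2 and Sema3c were lost.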

How the results depend on the processing

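The time change in 4OHT kept counts within 1.5 times of 4127 and 3753 under every alternative except a fold of at least 1.5 (1955 rose and 902 fell). Leaving out single libraries gave 3506 to 4391 rises and 3126 to 4059 falls. With upper-quartile scaling 4869 rose and 2978 fell, so that 62.05% of called genes rose, against 52.37% in the TMM fit, and the median of all genes moved to 0.06 on the log2 scale. With the replicate block 4162 rose and 3805 fell, and 20 rather than 13 of 47 xenobiotic genes rose. The counts of the difference between 4OHT and DMSO moved more: 600 greater and 247 smaller by DESeq2, 1170 and 680 with the replicate block, 17 and 11 at an adjusted p below 0.01, and 93 and 40 at a fold of at least 1.5. By DESeq2 and with the replicate block (added after seeing the data) the greater changes were 13 and 15 for the Reg and antimicrobial list, 21 and 29 for xenobiotic genes, 18 and 25 for glutathione and Nrf2 genes and 12 and 19 for fatty acid oxidation genes. Other scalings and filters and thinning kept the counts over all genes within 1.5 times. Without 1 library they ranged from 66 to 502 and from 28 to 225 (main 199 and 79). Beyond 1.5 times in either count lay, for 4OHT day 2, the fits without replicate 1 (127 and 56), 2 (401 and 137), 3 (66 and 28) and 4 (83 and 34); for 4OHT day 4, without replicate 2 (315 and 90), 3 (77 and 34) and 4 (331 and 150); for DMSO day 2, without replicate 1 (93 and 38), 2 (72 and 33), 3 (81 and 35) and 4 (502 and 225); and for DMSO day 4, without replicate 1 (92 and 38), 2 (110 and 55), 3 (80 and 39) and 4 (140 and 50). The cause was not tested. No named gene changed its direction with a call. The time change lost its call under an alternative for 3 of 164 named genes (Hif1a, Vil1 and Yap1) and gained one for 5 (Dmbt1, Hnf4a, Ncl, Timp2 and mt-Co1, the last with log2 0.26 without 4OHT day 4 replicate 4). The difference lost its call for 13 and gained one for 45. Between days, same-numbered libraries had correlations from -0.228 to 0.392. They were each other's best match for 4OHT replicates 1 (0.381) and 4 (0.392). For 4OHT replicates 2 and 3 and for every DMSO replicate they were not. At day 4, every DMSO library correlated best with the 4OHT library of its own number. At 63791712 to 93322956 counts per library, genes below the filter on low counts could not be tested.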
